A study of Mus musculus with 10 samples.

Results

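The neurexins, neuroligins and leucine-rich repeat transmembrane proteins (LRRTMs) are cell adhesion molecules that meet across the synaptic cleft. The set described here holds 9 genes, chosen by name from the 20171 genes used in the deposited table: the neurexins Nrxn2 and Nrxn3, the neuroligins Nlgn1, Nlgn2 and Nlgn3, and Lrrtm1, Lrrtm2, Lrrtm3 and Lrrtm4. Other genes of these families are not described. The files measure ribosome-bound mRNA from the hippocampus of adult mice, recovered through a tag on the ribosome by translating ribosome affinity purification (TRAP), and there were 4 groups. The first group was mice with early life stress (ELS) that were also exposed to acute forced-swim stress (AS), the second unstressed ELS mice, the third controls exposed to AS, and the fourth unstressed controls. All were C57BL/6 males, 70 to 90 days old. ELS was a wire grid and a reduced piece of nestlet in the cage of dam and pups from postnatal day 2 to 12, where control cages had a whole square and no grid. For AS, mice swam for 6 min in water (2 L, 25°C) and recovered for 1 h, and the other mice were left undisturbed. By the methods, the mice carried a Gprin3-BacTRAP transgene, in which the Gprin3 promoter drives a ribosomal protein tagged with green fluorescent protein, while the labels give the genotype as wild type and the source as CA3 neurons. Each library pooled 5 to 6 mice. The sample records list 3 libraries of ELS mice exposed to AS, 3 of unstressed ELS mice, 2 of controls exposed to AS and 2 of unstressed controls, and the methods state 3 per group.

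The table gives 1 value per gene and group, on the regularized log (rlog) scale of DESeq2, which is a log2 scale that pulls genes with few reads toward their mean. It holds no value per library, so no value below has an SD, an n or a p-value, and no difference could be set against the spread between replicates. "Lower" and "higher" below compare the authors' group values only. A difference of over 0.25 log2 units was counted, and each count of members is given beside the share of the 14986 genes with a mean rlog of at least 3 that passed the same size. As the material is bulk RNA, fewer cells of a type and less RNA per cell cannot be told apart.

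Neurexins sit mainly in the presynaptic membrane. Their extracellular part binds neuroligins and LRRTMs on the postsynaptic side, and the alternative splicing of neurexins sets which partner is preferred. Nlgn1 is found mainly at excitatory synapses, Nlgn2 mainly at inhibitory synapses and Nlgn3 at both. LRRTM proteins organize excitatory synapses and hold AMPA receptors there, and LRRTM4 is best known from dentate granule cells, where it also binds heparan sulfate proteoglycans. A hippocampal pyramidal cell makes proteins of both sides, neurexins for its own axon terminals and neuroligins and LRRTMs for its dendrites.

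RefSeq lists more than 1 start for some members, and the sequence before 4 listed starts is shown, for the neuroligin furthest from unstressed controls (Nlgn1, both listed starts), the neuroligin closest to them (Nlgn2) and the internal start of Nrxn3. Each is the 250 bases before the start, 5′ to 3′ on the strand of the gene, from RefSeq on GRCm38.p6, with CG dinucleotides, where mammalian DNA is methylated, in capitals.
Nlgn1 upstream start, chr3:26331910-26332159, minus strand: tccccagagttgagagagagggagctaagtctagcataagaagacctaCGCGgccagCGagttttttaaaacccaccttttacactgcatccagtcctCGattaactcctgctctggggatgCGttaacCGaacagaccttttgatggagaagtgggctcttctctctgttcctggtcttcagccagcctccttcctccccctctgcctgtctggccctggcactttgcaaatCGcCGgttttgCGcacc
Nlgn1 downstream start, chr3:26153987-26154236, minus strand: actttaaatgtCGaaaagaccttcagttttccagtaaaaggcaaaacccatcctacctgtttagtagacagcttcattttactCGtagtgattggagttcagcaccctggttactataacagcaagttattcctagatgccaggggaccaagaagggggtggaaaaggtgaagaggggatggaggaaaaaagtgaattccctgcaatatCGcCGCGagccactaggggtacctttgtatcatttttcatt
Nlgn2, chr11:69837785-69838034, minus strand: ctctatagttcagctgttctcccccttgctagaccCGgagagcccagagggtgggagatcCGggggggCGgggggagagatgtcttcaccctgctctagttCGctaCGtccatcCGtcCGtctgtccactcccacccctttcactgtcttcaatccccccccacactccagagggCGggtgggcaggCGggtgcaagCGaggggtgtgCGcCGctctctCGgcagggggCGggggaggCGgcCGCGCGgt
Nrxn3 internal start, chr12:89812233-89812482, plus strand: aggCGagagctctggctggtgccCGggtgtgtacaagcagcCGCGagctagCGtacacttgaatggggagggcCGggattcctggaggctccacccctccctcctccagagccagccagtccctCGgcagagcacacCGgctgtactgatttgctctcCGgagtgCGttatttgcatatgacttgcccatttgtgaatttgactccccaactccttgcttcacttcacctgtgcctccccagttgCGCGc
Of the GENCODE M21 transcripts of Nlgn1, 1 starts within 250 bases of the upstream start and codes for no protein, and 0 start within 250 bases of the downstream start, so no annotated coding transcript begins at either. The Nlgn2 window held 18 CG dinucleotides and 67.6% G or C. The windows of Nlgn1 held 9 and 5, and that of Nrxn3 held 12, where the median over 32851 promoters of the same length was 6. Transcripts that start within 250 bases of the internal Nrxn3 start code for at most 567 codons, against 1571 for the longest transcript of the gene, and the table gives a single value for both forms. The half-site of the glucocorticoid receptor (AGAACA, both strands) occurred once among these windows, in Nlgn2 at 236 bases before the start, and 16.1% of all promoters held it. The window of a Nrxn3 start further upstream, not shown here, also held it, at 99 bases before that start. The half-site of the cAMP response element (TGACG, in 17.8% of promoters) and the Egr site (GCGTGGGCG, in 0.536%) occurred in none of the windows shown. The table of promoters had entries for 6 of the 9 members that could be used, namely Nrxn3, Nlgn1, Nlgn2, Lrrtm1, Lrrtm3 and Lrrtm4.

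The loci differ widely in size. On GRCm38 (GENCODE M21), Nrxn3 spans 1612 kb of chromosome 12 (88722876 to 90334935), Nlgn1 spans 906 kb of chromosome 3 (25426215 to 26332460) and Lrrtm4 spans 791 kb of chromosome 6 (80018877 to 80810143). Lrrtm3 lies on chromosome 10 (63928472 to 64090277, 162 kb) and Nrxn2 on chromosome 19 (6418731 to 6544169, 125 kb). The others are compact, with Nlgn3 on the X chromosome (101299168 to 101325963), Nlgn2 on chromosome 11 (69823122 to 69837784), Lrrtm1 on chromosome 6 (77242689 to 77257791) and Lrrtm2 on chromosome 18 (35209003 to 35215024). The median span of the genes tested was 24.8 kb. Lrrtm1, Lrrtm2 and Lrrtm3 each lie inside an alpha-catenin gene on the opposite strand, Ctnna2, Ctnna1 and Ctnna3. Exons of Ctnna1 and Lrrtm2 share 95 bases, and the other pairs share no exon base. An antisense transcript annotated as Gm4409 covers 25.1% of the exon bases of Lrrtm4, and Gm21986, on the same strand, 41.2% of those of Nlgn3. On the opposite strand, A830092H15Rik covers 9.16% of the exon bases of Nlgn1 and Gm37980 3.48% of those of Nrxn3. Also on the opposite strand, Slc22a12 covers 4.94% and Gm14964 1.5% of those of Nrxn2. The library kit does not mark strand, so reads in shared bases cannot be assigned to a gene by strand. Of these overlapping genes, only the alpha-catenins were analysed here.

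Levels between genes were compared per length, as the mean of the 4 group values on the rlog scale minus the log2 of the longest transcript in kb. On this scale Lrrtm1 stood highest with a level of 9.30, followed by Nlgn2 with 9.06, Nrxn2 with 9.03 and Nrxn3 with 8.43. Lrrtm2 followed with 6.78. The lowest levels were those of Lrrtm4 with 6.08, Nlgn3 with 5.95, Lrrtm3 with 5.84 and Nlgn1 with 5.77. With the mean transcript length in place of the longest, the same 4 genes led, with levels of 9.67 to 10.15, Lrrtm2 stayed between the groups with 7.48, and the 4 lowest lay between 6.81 and 6.92. The order within the upper and the lower group changed with the length used, and the spread between libraries is not known, so neighbours in the order cannot be called different. The inhibitory neuroligin, Nlgn2, was thus listed well above Nlgn1 and Nlgn3 with either length.

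Most of the 9 genes had their highest value in unstressed controls. This was so for Nrxn3, Nlgn1, Nlgn2, Nlgn3, Lrrtm1 and Lrrtm2, which were lower in all 3 other groups, 6 of 9 members, where 37.4% of all genes tested were lower in all 3. None was higher in all 3, beside 35% of all genes, although Lrrtm3 was with each group centred on its median and Nrxn2 was relative to genes of like transcript length. Nrxn2 was highest in controls exposed to AS, as were 21.6% of all genes, and Lrrtm3 and Lrrtm4 were highest in ELS mice exposed to AS, as were 19.7%. All 3 differences use the same unstressed controls, so a deviation of those libraries would move all of them together.

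**Figure D1:**
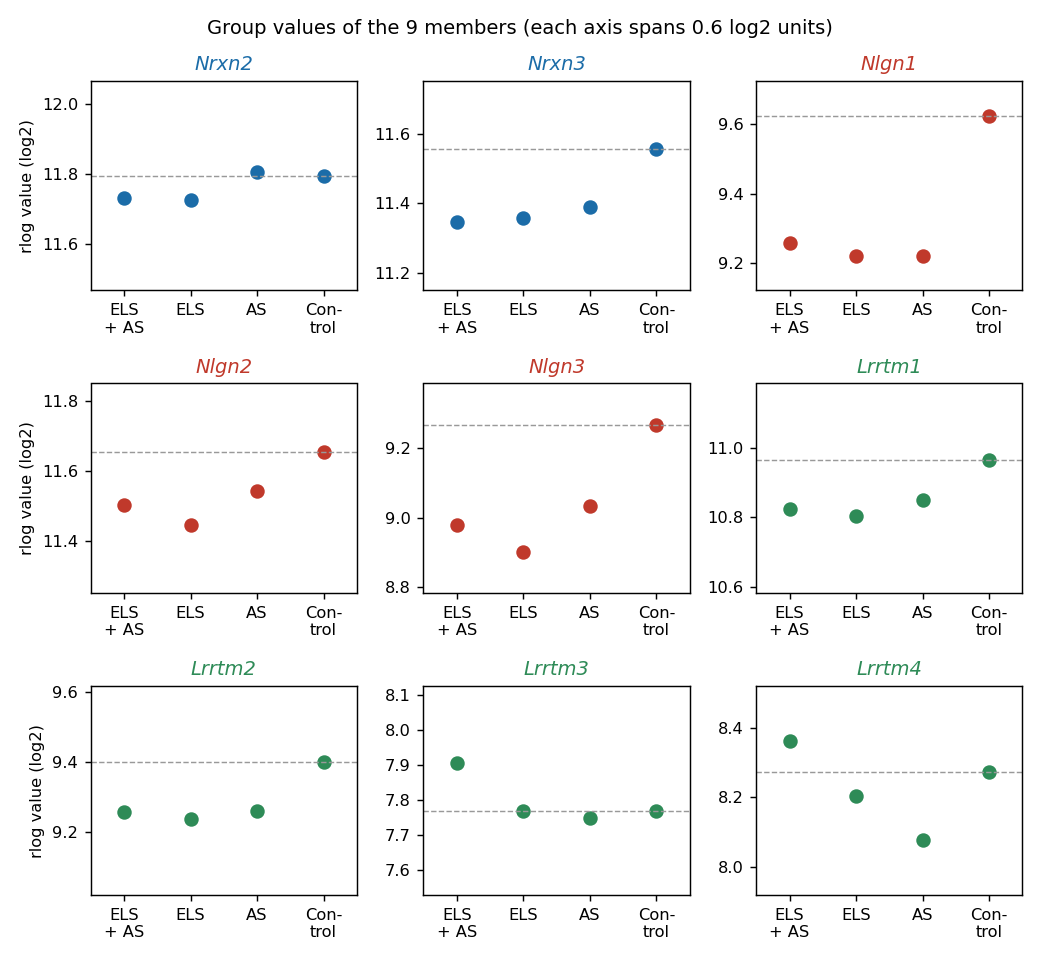
The rlog values (log2, vertical axis) of the 9 members are plotted by group, with ELS mice exposed to AS (ELS + AS), unstressed ELS mice (ELS), controls exposed to AS (AS) and unstressed controls (Control) from left to right. Each point is the authors' single value for a group, the dashed line marks unstressed controls, and each axis covers 0.6 log2 units around its gene, so heights can be compared across panels but levels cannot. In 6 panels the point of unstressed controls is the highest, and in the panels of Lrrtm3 and Lrrtm4 that of ELS mice exposed to AS is.

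Of the neurexins, Nrxn3 was lower in every stressed group and Nrxn2 stayed near its control value. Nrxn3 had rlog values of 11.35 in ELS mice exposed to AS, 11.36 in unstressed ELS mice, 11.39 in controls exposed to AS and 11.55 in unstressed controls. The 3 stressed groups lay within 0.05 of each other and all below unstressed controls, with differences of −0.21, −0.20 and −0.16 in the same order. Nrxn2 had rlog values of 11.73 in ELS mice exposed to AS, 11.73 in unstressed ELS mice, 11.81 in controls exposed to AS and 11.80 in unstressed controls. Its values split by early life history, with both ELS groups below both control groups, but the largest difference between any 2 groups was 0.08, the smallest range of the 9 genes.

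The neuroligins held the largest differences. Nlgn1 had rlog values of 9.26 in ELS mice exposed to AS, 9.22 in unstressed ELS mice, 9.22 in controls exposed to AS and 9.62 in unstressed controls. Unstressed controls stood alone, and the other 3 groups differed among themselves by 0.04 at most. The difference from unstressed controls was −0.36, −0.40 and −0.40 in the same order, and a difference of −0.40 is a linear value that differs by −24.3%. In controls exposed to AS, 4.14% of the genes tested had a lower difference than Nlgn1, and in unstressed ELS mice 3.48%. Nlgn3 had rlog values of 8.98 in ELS mice exposed to AS, 8.90 in unstressed ELS mice, 9.03 in controls exposed to AS and 9.27 in unstressed controls. It was lowest in unstressed ELS mice, with a difference of −0.36 from unstressed controls, where 4.58% of genes were lower still, and controls exposed to AS lay between, with −0.23. Nlgn2 had rlog values of 11.50 in ELS mice exposed to AS, 11.45 in unstressed ELS mice, 11.54 in controls exposed to AS and 11.65 in unstressed controls. It followed the order of Nlgn3 at a smaller size, with a difference of −0.21 in unstressed ELS mice and −0.11 in controls exposed to AS.

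The 4 LRRTM genes fell into 2 patterns. Lrrtm1 had rlog values of 10.82 in ELS mice exposed to AS, 10.80 in unstressed ELS mice, 10.85 in controls exposed to AS and 10.96 in unstressed controls. Lrrtm2 had rlog values of 9.26, 9.24, 9.26 and 9.40 in the same order. Both had their 3 stressed groups close together and below unstressed controls, with differences of −0.16 to −0.11 over both genes. Lrrtm3 had rlog values of 7.91 in ELS mice exposed to AS, 7.77 in unstressed ELS mice, 7.75 in controls exposed to AS and 7.77 in unstressed controls. Only the combination of ELS and AS stood apart, and it was higher. Lrrtm4 had rlog values of 8.36 in ELS mice exposed to AS, 8.20 in unstressed ELS mice, 8.08 in controls exposed to AS and 8.27 in unstressed controls. Its lowest value was in controls exposed to AS and its highest in ELS mice exposed to AS, 0.28 apart.

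Against unstressed controls, AS in controls asked what a first acute stressor does. Of the 9 members 8 were lower after AS (51.7% of all genes were lower at any size), or 7 with each group centred on its median, where Lrrtm3 turned to 0.02, with a median difference of −0.14, where the median of all genes was −0.01. Nlgn1 alone was lower by over 0.25, or 1 of 9 members, beside 12.3% of all genes, a share near the background. No member was higher by over 0.25, beside 11.4% of all genes, and 7 of 9 were lower by over 0.1, beside 32.7%. That count of 7 was 5 with each group centred on its median and 4 relative to genes of like transcript length. In unstressed ELS mice against unstressed controls, which asks what remains of early stress in the adult, all 9 members were lower (51.5% of all genes), among them Lrrtm3 by under 0.01, but 8 were with centring, where Lrrtm3 turned to 0.03, and 6 relative to genes of like transcript length, where Nrxn2, Lrrtm3 and Lrrtm4 turned to 0.06, 0.01 and 0.01. The median was −0.16, where that of all genes was −0.01. Nlgn1 and Nlgn3 were lower by over 0.25, or 2 of 9 members, beside 11.9% of all genes. Lower by over 0.1 were 6, beside 32.7%, or 3 relative to genes of like transcript length. In ELS mice exposed to AS against unstressed controls, 7 of 9 members were lower (50.9% of all genes), with a median of −0.14. The median of all genes was −0.00. Nlgn1 and Nlgn3 were again lower by over 0.25, beside 9.47% of all genes. Lower by over 0.1 were 6 members, beside 29.8%, or 3 relative to genes of like transcript length. With so few genes a count of 2 against 1 is a difference of a single gene, Nlgn3, whose value after AS in controls (−0.23) was just short of that size.

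**Figure D2:**
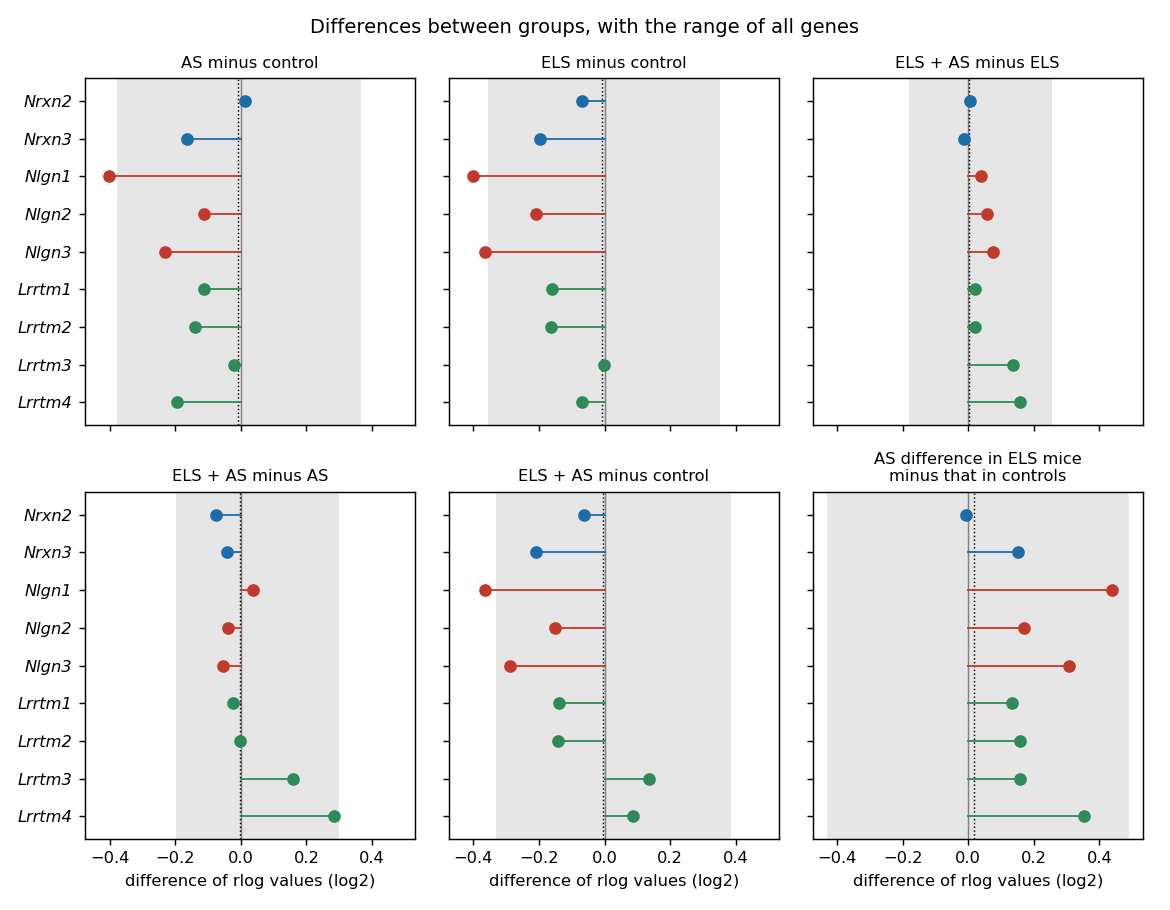
Differences of rlog values (log2, horizontal axis) are plotted for each member in the 5 comparisons and for the difference between the AS effects, as points joined to 0. Grey bands run from the 5th to the 95th percentile of the 14986 genes tested and dotted lines mark their median. Nlgn1 lies outside the band for AS minus control, with −0.40, and Nlgn1 and Nlgn3 lie outside it for ELS minus control, with −0.40 and −0.36.

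Within ELS mice, AS was linked with small differences in these genes. Comparing swum with unstressed ELS mice, 7 of 9 members differed by 0.1 or less, where 64.4% of all genes did, and 8 of 9 were higher at any size, where 50.8% were. That count was 5 with each group centred on its median, where Nrxn2, Lrrtm1 and Lrrtm2 turned lower, and 6 relative to genes of like transcript length, where Nrxn2 and Lrrtm2 did, so it depended on the scaling. The median was 0.04, and 0.00 over all genes. None was past 0.25 in either direction, beside 1.96% of all genes lower and 5.11% higher. The members beyond 0.1 were Lrrtm4 with 0.16 and Lrrtm3 with 0.14, both higher after AS. Between ELS mice exposed to AS and controls exposed to AS, which compares the early history among swum mice, 7 of 9 members again differed by 0.1 or less, beside 59.2% of all genes. Lrrtm4 was higher by 0.28, the only member past 0.25, beside 6.89% of all genes higher and 2.6% lower, and Lrrtm3 was higher by 0.16. At any size 6 of 9 members were lower, beside 51% of all genes. The median over the 9 members was −0.03 and their mean 0.03, so the sign of the summary depended on which was used.

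The AS difference in ELS mice minus that in controls was above 0 for 8 of the 9 genes, with a median of 0.16. The median of all genes was 0.02, and 52.6% of all genes were above 0. The difference between the AS effects was past 0.25 for Nlgn1 with 0.44, Lrrtm4 with 0.35 and Nlgn3 with 0.31. These were 3 of 9 members, beside 19.3% of all genes. Relative to genes of like transcript length, 2 members remained past 0.25, Nlgn1 with 0.32 and Lrrtm4 with 0.25, while Nlgn3 had 0.15, and Nlgn2, Nrxn3 and Lrrtm2 had 0.03, 0.00 and 0.02. With each group centred on its median, Nlgn3 was also short of it, with 0.246. For Nlgn1 this was made up of 0.04 in ELS mice and −0.40 in controls, and for Nlgn3 of 0.08 in ELS mice and −0.23 in controls. For Lrrtm4 it was made up of 0.16 in ELS mice and −0.20 in controls, so the values lay on opposite sides of 0. Nrxn2 was the exception, with −0.01, or −0.15 relative to genes of like length. Without values per library the difference between the AS effects was not tested. It also uses the value of unstressed controls, so a deviation of those libraries would move it together with the differences against them.

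**Figure D3:**
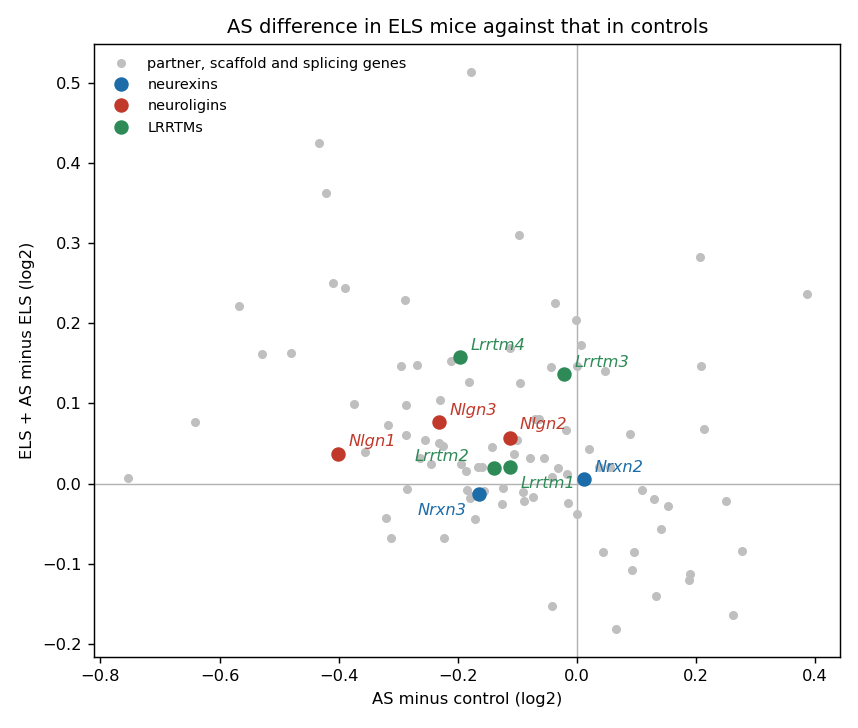
The AS difference in ELS mice (ELS + AS minus ELS, log2, vertical axis) is plotted against that in controls (AS minus control, log2, horizontal axis) for the 9 members in colour and for 90 partner, scaffold and splicing genes in grey, each point a gene. The 2 axes use different groups, and unstressed controls enter only the horizontal one. Nlgn1, at −0.40 and 0.04, lies far to the left near the horizontal line, and Lrrtm4, at −0.20 and 0.16, lies above it.

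In the comparisons against unstressed controls, genes with long transcripts tended to be lower, and most members have long transcripts. The longest Nlgn1 transcript has 11807 bases, longer than that of 98.7% of the genes tested, that of Nlgn3 has 8541 and that of Nrxn3 has 7922, while that of Lrrtm1 has 2958 bases, below the median of 3396. Genes of like length had a median difference of −0.15 in controls exposed to AS and −0.13 in ELS mice left unstressed for the length of Nlgn1, and 0.02 and 0.01 for that of Lrrtm1. Relative to genes of like length, Nlgn1 differed by −0.25 after AS in controls and by −0.27 in unstressed ELS mice, and it was the only member still lower by over 0.25 in these comparisons. Nlgn3 differed by −0.11 and −0.21 and Lrrtm1 by −0.13 and −0.16. Nrxn3, at −0.05 and −0.08, and Lrrtm2, at −0.05 and −0.04, came close to genes of their length, and Nrxn2 was above them by 0.13 and 0.06. With this trend removed, the median of the 9 members was −0.05 in controls exposed to AS and −0.08 in ELS mice left unstressed, and no member was lower by over 0.25 in ELS mice exposed to AS against unstressed controls. The higher values of Lrrtm3 and Lrrtm4 in ELS mice exposed to AS moved little, to 0.13 and 0.15 against unstressed ELS mice and to 0.15 and 0.28 against controls exposed to AS.

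**Figure D4:**
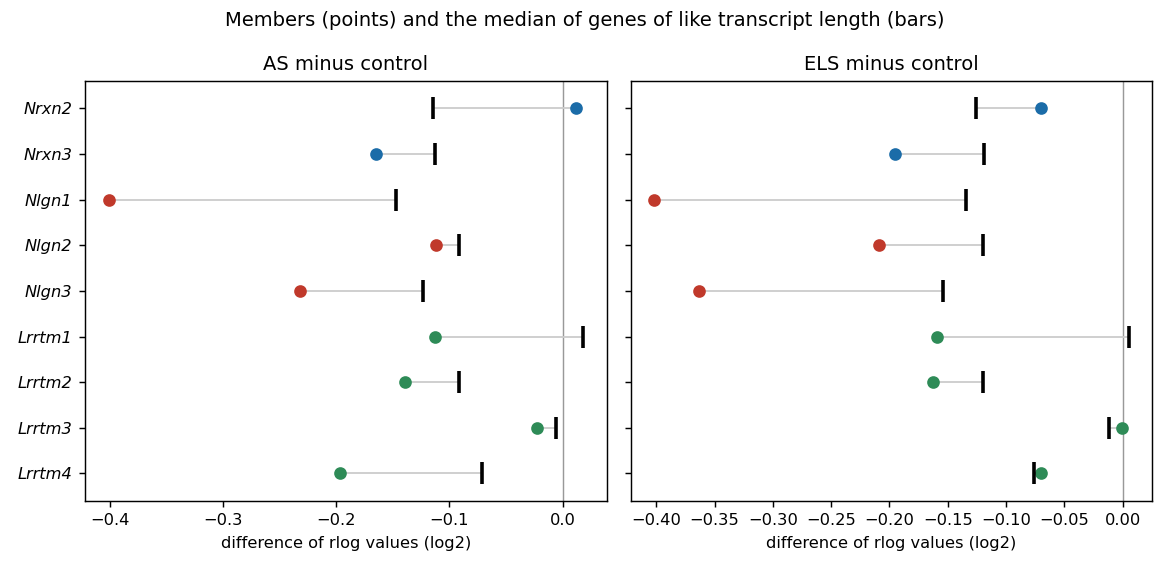
Points show the difference of rlog values (log2, horizontal axis) of each member for AS minus control (left) and ELS minus control (right), and black bars the median of 293 or 294 genes of like transcript length. Nlgn1 lies 0.25 and 0.27 to the left of its bar and Lrrtm1 0.13 and 0.16, while Nrxn2 lies to the right of its bar in both panels.

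Markers of several hippocampal cell types also differed in the same comparisons. All 12 markers listed for CA3 pyramidal cells were measured, with mean rlog values of 5.06 to 12.49, and none was near 0. Of these 12, 11 were lower in controls exposed to AS and 11 in unstressed ELS mice, with medians of −0.18 and −0.27, and all 12 were lower in ELS mice exposed to AS, with −0.31. Of all genes, 51.7%, 51.5% and 50.9% were lower in these comparisons. One of the 12 is Gprin3, whose promoter drives the tag, and it differed by −0.549, −0.765 and −0.739 in the same order. The log2 of the summed linear values of the 12 markers was 14.06 in ELS mice exposed to AS, 14.13 in unstressed ELS mice, 14.22 in controls exposed to AS and 14.33 in unstressed controls. Markers of other cells were present as well. The 10 oligodendrocyte markers summed to 15.73, 15.40, 15.28 and 15.27 in the same order, the 12 astrocyte markers to 15.29, 14.87, 14.89 and 14.78, and the 11 interneuron markers to 14.23, 13.99, 13.99 and 13.97, while the 6 endothelial markers summed to between 6.66 and 6.90. The 10 markers of dentate granule cells were lower in controls exposed to AS for 10 of 10 genes, with a median of −0.40. They were higher for 8 of 10 in ELS mice exposed to AS against unstressed ELS mice, beside 50.8% of all genes, with a median of 0.30. Against controls exposed to AS they were higher for 9 of 10, with a median of 0.42, where 51% of all genes were lower. Lrrtm4 differed in the same directions, by −0.20, 0.16 and 0.28, and so did the medians of the oligodendrocyte markers, with −0.27, 0.45 and 0.69, and of the CA1 markers, with −0.12, 0.26 and 0.22, so the match was not particular to dentate markers. Microglia markers ran opposite to most members against unstressed controls. They were higher for 10 of 10 genes in controls exposed to AS, for 9 of 10 in unstressed ELS mice and for 10 of 10 in ELS mice exposed to AS, with medians of 0.27, 0.40 and 0.62, and their sums were 10.63, 10.36, 10.30 and 10.13 in the order of groups above. The sums were 12.63, 12.27, 12.19 and 12.00 for the 6 markers of oligodendrocyte precursors, 13.61, 13.64, 13.68 and 13.48 for the 5 of CA2 and 14.16, 14.00, 14.01 and 14.12 for the 7 of CA1. The part of these cell types in the differences of the members was not tested.

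The pathway around the 9 genes was described with 14 lists of 91 partner, scaffold, protease and splicing genes, of which 90 had a mean rlog of at least 3. Of these 90, 22 were lower by over 0.25 after AS in controls, or 24.4%, and 22 in unstressed ELS mice, where 12.3% and 11.9% of all genes were. The trend in transcript length was not removed from the values of these lists, so its part in them is not known. The cell surface partners of neurexins other than neuroligins and LRRTMs were lower for 8 of 9 genes in each comparison, with medians of −0.30 and −0.32. Dag1, which encodes dystroglycan, a laminin and neurexin receptor, differed by −0.41 after AS and −0.45 in unstressed ELS mice. Adgrl3, a latrophilin, differed by −0.39 and −0.50, and Gpc4, a glypican that binds LRRTM4, by −0.43 and −0.32. Igsf21 was the exception, higher by 0.25 and 0.14. In ELS mice exposed to AS against unstressed ELS mice, Gpc4 was higher by 0.42, and Dag1 by 0.25.

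The secreted ligands of neurexins were split. Of 11 cerebellins, C1q-like proteins and neurexophilins, 6 were lower and 5 higher after AS in controls, where 51.7% of all genes were lower. The median of the 11 was −0.02. Cbln4, a cerebellin, was higher by 0.39 after AS in controls and by 0.30 in unstressed ELS mice. Nxph1, a neurexophilin that binds alpha-neurexins, differed by −0.42 and −0.27. In ELS mice exposed to AS all 11 were above unstressed ELS mice, beside 50.8% of all genes, with a median of 0.15. Among them were C1ql2, a ligand of Nrxn3 made by dentate granule cells, with 0.51, and Nxph1 with 0.36. C1ql2 is also one of the dentate markers above. The values of C1ql2 were 9.77 in ELS mice exposed to AS, 9.25 in unstressed ELS mice, 9.08 in controls exposed to AS and 9.26 in unstressed controls, so it too was lowest and highest in the same groups as Lrrtm4.

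Another presynaptic family, the LAR type receptor phosphatases, had all 3 genes lower in both comparisons, beside 51.7% and 51.5% of all genes. Ptprf had −0.57 in controls exposed to AS and −0.67 in ELS mice left unstressed, and Ptprs had −0.28 and −0.35. Their postsynaptic partners were lower in each comparison for 8 of the 9 genes with a mean rlog of at least 3, among them Slitrk3, which acts at inhibitory synapses, at −0.64 and −0.66 and Slitrk4 at −0.53 and −0.61. Ptprf, Slitrk3 and Slitrk4 thus stood further from unstressed controls than any of the 9 members. Lrrc4b stayed near 0, at 0.04 and 0.00. The netrin-G and NGL proteins went no particular way, with 2 of 4 genes lower in each comparison. Ntng1 was furthest from 0, at −0.25 and −0.27, and Ntng2 had 0.09 and 0.12.

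The partners inside the cell were counted for each side of the synapse. Of all genes, 51.7% were lower at any size in controls exposed to AS and 51.5% in unstressed ELS mice. Of the 10 genes for postsynaptic partners of neuroligins, which include the scaffolds of excitatory and inhibitory synapses, 8 were lower in each comparison, with medians of −0.07 and −0.12. Dlg1, a scaffold of the PSD-95 family, differed by −0.31 in controls exposed to AS and −0.11 in ELS mice left unstressed. Dlg4, of the same family, was an exception, higher by 0.19 and 0.18. Magi3 differed by −0.22 and −0.27, and Lhfpl4, which links Nlgn2 to GABA-A receptors, by −0.06 and −0.23. Of the 7 presynaptic partners of neurexins, 2 were lower in controls exposed to AS and 3 in ELS mice left unstressed, with medians of 0.07 and 0.06, and Lin7a and Lin7c were higher, by 0.19 and 0.14 after AS and by 0.24 and 0.19 in ELS mice. Caskin1 differed by −0.09 and −0.21. The members and these lists were chosen with earlier results in view, so none of these counts is a test of the pathway.

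**Figure D5:**
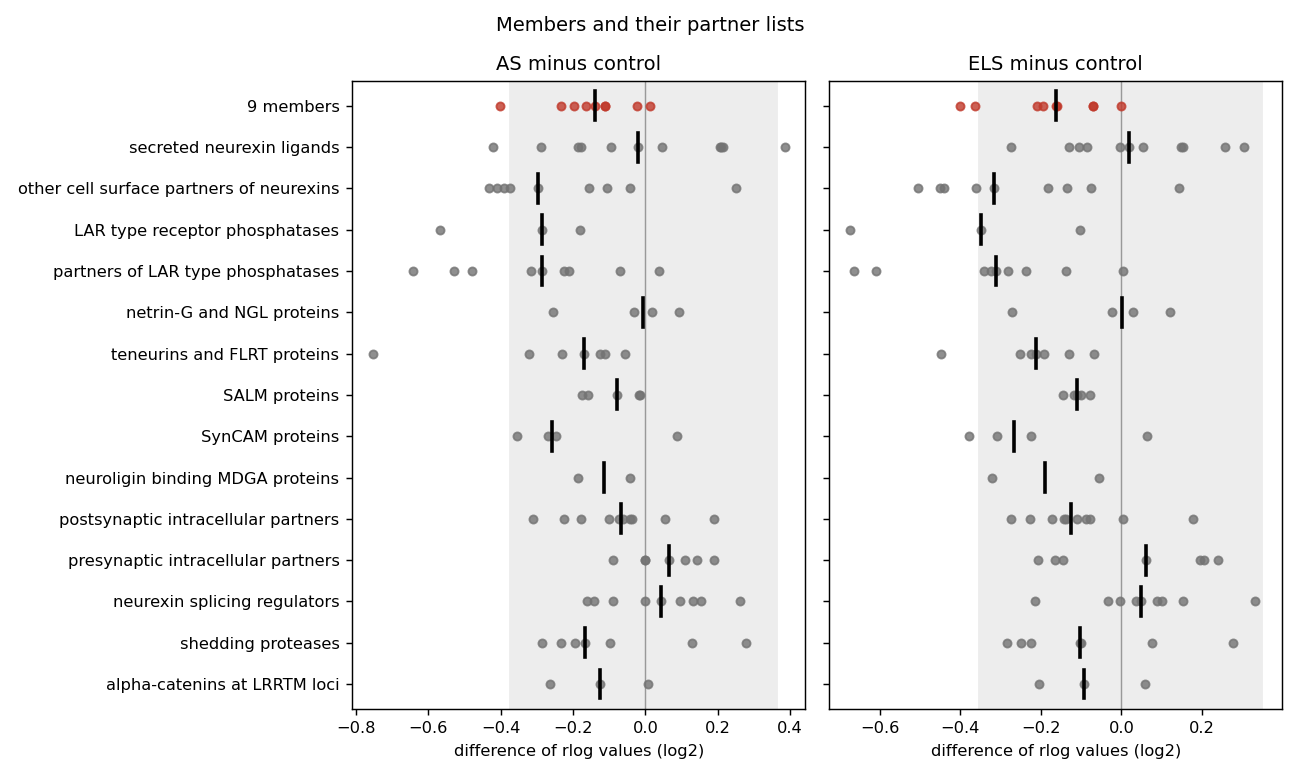
Differences of rlog values (log2, horizontal axis) are plotted for the 9 members (top) and the 14 lists, for AS minus control (left) and ELS minus control (right). Each point is a gene, black bars are the median of the list, and the grey band runs from the 5th to the 95th percentile of all genes tested. The medians of the members, −0.14 and −0.16, lie between those of the cell surface partners of neurexins, −0.30 and −0.32, and those of the presynaptic intracellular partners, 0.07 and 0.06.

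The alpha-catenin genes that hold 3 of the LRRTM genes are set beside them here. Ctnna1, around Lrrtm2, differed by 0.01 after AS in controls and by 0.06 in unstressed ELS mice, where Lrrtm2 differed by −0.14 and −0.16. Ctnna2, around Lrrtm1, differed by −0.13 and −0.09, where Lrrtm1 had −0.11 and −0.16. Ctnna3, around Lrrtm3, had a mean rlog of 3.53, near the limit of 3, and differed by −0.26 and −0.21, where Lrrtm3 had −0.02 and −0.00.

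For the 3 members with the largest range, the genes with the most similar profile over the 4 groups were named by the Euclidean distance between profiles centred on each gene's mean. Closest to Nlgn1 were Gm21949, Tbcd and Enpp4, at distances of 0.01, 0.02 and 0.02 log2 units, and 46 genes lay within 0.05. Closest to Nlgn3 were Nomo1, Pcid2 and Nol6, at 0.01, 0.02 and 0.02, with 72 genes within 0.05. Closest to Lrrtm4 were 2210408I21Rik, Pde1b and Exd1, at 0.01, 0.02 and 0.02, with 26 genes within 0.05. A profile of 4 values leaves many genes with a near-identical profile, so the names are a description of these values.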

How the data were processed

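The sample records list 10 libraries of TRAP RNA for the 4 groups, and the methods state 3 per group. According to the methods, reads were trimmed and quality filtered, then aligned by the authors to mm10 with Rsubread, transcripts were quantified with Salmon, and tximport passed gene counts to DESeq2. The submitters' processing notes also name limma, and tool versions are not given in the sources used here. The deposited values are rlog values on the log2 scale, 1 per gene and group. How libraries were combined, and whether the limma batch correction of the study's heatmaps was applied, is not known, and the depth of the libraries is unknown from this table.

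Of 20196 rows, 25 symbols that had become dates were left out. Differences of group values were taken for 5 comparisons, and genes with a mean of at least 3 (14986) formed the background. Transcript lengths and loci came from GENCODE M21, and a length was found for 98.1% of these genes. The length trend is the median difference in 50 bins of transcript length. Named genes are all members, per list the 2 furthest from 0 in each main comparison, and genes that hold a member or share exon bases with it. Named too are the 3 genes most similar in profile to each of the 3 members of largest range. C1ql2, Igsf21, Lrrc4b, Cadm4, Khdrbs3, Adam10, Dlg4 and Gprin3 were named after their values were seen. Members and lists were chosen with earlier results of these data known. The code was tested on simulated data. Python 3.11.15, numpy 2.4.6, pandas 2.3.3 and matplotlib 3.10.9 were used.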

Additional observations from a re-analysis of the deposited data

How the results depend on the processing

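No paired analysis was possible because the table holds 1 value per group and none per library. Leaving out replicates was not run for the same reason. With a size of 0.1 in place of 0.25, 7 members were lower after AS in controls, beside 32.7% of all genes. There were 6 in unstressed ELS mice, beside 32.7%, and 6 in ELS mice exposed to AS against unstressed controls, beside 29.8%. With a size of 0.5 there were 0 in each. After subtracting the median of genes of like length, the count was 1 in unstressed ELS mice and 0 in ELS mice exposed to AS against unstressed controls, and the medians of the members were −0.0525 after AS in controls, −0.0764 in unstressed ELS mice and −0.0546 in ELS mice exposed to AS against unstressed controls. The mean in place of the median was 0.0262 for ELS mice exposed to AS against controls exposed to AS. Centring each group on its median changed no count of members lower by over 0.25, but members lower at any size became 7 in controls exposed to AS and 8 in unstressed ELS mice, those higher in ELS mice exposed to AS against unstressed ELS mice became 5, and the difference between the AS effects was 0.246 for Nlgn3, no longer past 0.25, and the median difference between the AS effects became 0.10. With a mean of at least 6, 2 of 12 background shares moved by over 1.5 times, and with no filter 0 did. By place in the order of levels per length, 6 of 9 members moved with the mean transcript length. Centring and the length trend, for the counts at any size, within 0.1, lower by over 0.1 and higher by over 0.25, were added after the data were seen. Of these counts 8 moved by over 1.5 times with centring and 24 did not, and with the length trend removed 21 did not and 11 did. With that trend removed, members lower by over 0.1 became 4 in controls exposed to AS and 3 in unstressed ELS mice. In ELS mice exposed to AS against unstressed controls they became 3. With centring, the counts were 5, 6 and 6 in the same order. The share of all genes was not computed for these counts. Other values were called moved when they differed by over 0.05 log2 units, a size chosen freely as no spread is known.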

Other observations

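Further adhesion families showed the same direction as most members. Of all genes, 51.7% were lower at any size in controls exposed to AS and 51.5% in unstressed ELS mice. Of the 4 SynCAM genes, homophilic and heterophilic adhesion proteins of both sides of the synapse, 3 were lower in controls exposed to AS and again 3 in ELS mice left unstressed, with medians of −0.26 and −0.27. Cadm3 differed by −0.36 and −0.38 and Cadm1 by −0.27 and −0.31, while Cadm4 was higher by 0.09 and 0.06. All 7 teneurin and FLRT genes, partners of latrophilins, were lower in each comparison, with medians of −0.17 and −0.21, and Tenm1, with a mean rlog of 5.33, was furthest from 0 with −0.75 and −0.45, followed by Flrt3 with −0.32 and −0.25. All 5 SALM genes were lower at a smaller size, with medians of −0.08 and −0.11, and Lrfn3 and Lrfn2 had −0.18 and −0.16 after AS in controls, Lrfn1 and Lrfn4 −0.14 and −0.12 in unstressed ELS mice. Mdga1, whose product binds neuroligins and keeps neurexins away, differed by −0.19 and −0.32, and Mdga2 by −0.04 and −0.06.

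Genes that act on the adhesion proteins themselves went both ways. Of 9 splicing regulators of neurexin transcripts, 4 were lower in controls exposed to AS and, in ELS mice left unstressed, 3, with medians of 0.04 and 0.05. Nova1, a neuronal splicing factor, was higher by 0.26 and 0.33, and Khdrbs3, a regulator of neurexin splicing, by 0.13 and 0.15. Ptbp2 differed by −0.16 and −0.03 and Rbfox2 by −0.09 and −0.21. In ELS mice exposed to AS against unstressed ELS mice, 7 of these 9 genes were lower, with Nova1 at −0.16, where 50.8% of all genes were higher. Of the 7 proteases and gamma-secretase subunits that can shed neurexins or neuroligins, 5 were lower in each comparison against unstressed controls. Adam10, a sheddase of neuroligins, had −0.17 and −0.10 and Psen2 had −0.29 and −0.28. Psenen, a small gamma-secretase subunit, was higher by 0.28 in each. As for the members, these are differences of single group values and were not tested.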
